A study of Apis mellifera with 9 samples.

Results

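Hbg1, Hbg2 and Hbg3 are alpha-glucosidase genes of the honey bee, Apis mellifera, and their levels were read in the ovaries of adult workers. They were taken from the protein-coding features of the RNA-seq table by gene name, which gave 2 of the 3 names (Hbg2 and Hbg3). The table lists Hbg1 as AGLU2, the symbol for which RefSeq (assembly Amel_HAv3.1) gives Hbg1 as a synonym, and its protein accession in the table is the one RefSeq gives for that gene. Its product is named alpha glucosidase 2 there, so the numbering of the product and of the synonym differ. The 3 genes were thus all found, among 10271 protein-coding features of 13204 in the table. The study has 1 group of samples and no treatment. The labels name no strain and describe the bees as workers from 5 colonies whose queens were sisters. Each of 3 pools held 40 ovary pairs from workers of a single colony, collected 4 days after newly emerged, marked bees were put back into their hive. Brood frames had been held at 34 °C and 80% humidity. Each pool gave an RNA-seq library from rRNA-depleted RNA, a circRNA library, for which linear RNA was removed with RNase R, and a library of small RNAs not used here.

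Alpha-glucosidases cut glucose from the non-reducing end of sugars such as sucrose and maltose. In the honey bee, the enzyme of Hbg3 is known from the hypopharyngeal gland of the head, from which it is secreted into nectar during honey making. The enzymes of Hbg1 and Hbg2 are known from the ventriculus (the midgut), and that of Hbg2 also from the haemolymph. All 3 genes carry the alpha-amylase catalytic domain in the annotation of the table, so they belong to the alpha-amylase family of glycoside hydrolases.

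Library totals recovered from the table came to 31930244, 27684048 and 26602582 fragments in pools 1, 2 and 3. Germ-line genes were read beside the tissue label. All 11 features matched as ovary and germ-line markers had a mean of 5 FPKM or more (fragments scaled to exonic length and library total). So had 7074 of the 10271 protein-coding features, and the count alone is therefore no check of the label. Among the 11 was vas, the germ-cell RNA helicase, at 23.4 ± 4.62 FPKM (SD, n = 3). The highest was the cytoplasmic polyadenylation element-binding protein 1 (LOC411907), a regulator of stored mRNAs in germ cells, which also spread most, at 110.04, 280.3 and 274.95 FPKM in pools 1, 2 and 3. Exuperantia (LOC551582), a maternal mRNA localisation factor in Drosophila, averaged 69.8 ± 8.95 FPKM, and the lowest, the piRNA pathway gene maelstrom (LOC100576828), 5.71 ± 0.530 FPKM (SD, n = 3 each). The summed level of the 11 was 417 FPKM in pool 1, 630.4 in pool 2 and 650.04 in pool 3, and none of the 11 was highest in pool 1, while 2 of them spread 2-fold or more between pools. Of the features with a mean of 5 FPKM or more, 38.2% were highest in pool 1 and 11.0% spread 2-fold or more. Because each library is an RNA extract of many cells, fewer cells of a type and less RNA per cell cannot be told apart in any level given here. The labels do not say whether the 3 pools came from different colonies, so the spread and p-values given here measure the spread between these pools, each read in 1 library.

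Hbg2 had by far the highest level of the 3 genes in every pool. It stood at 754 FPKM in pool 1, 305 in pool 2 and 149 in pool 3, from 41983, 14712 and 6918 fragments. The 3 values lie well apart, and the counting intervals (exact Poisson, 95%) of 747 to 762, 299.98 to 310 and 146 to 153 FPKM do not overlap. Such intervals cover counting error only, since amplified reads are not independent molecules. Hbg2 averaged 403 ± 314 FPKM (SD, n = 3), or 227 FPKM without pool 1, and was 132nd by mean among the protein-coding features. By pool it was 54th, 159th and 370th, with 99.5%, 98.5% and 96.4% of protein-coding features below it.

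Hbg3 stood at 25.1 FPKM in pool 1, 13.3 in pool 2 and 18.3 in pool 3, from 1790, 820 and 1088 fragments. Its counting intervals of 23.9 to 26.3, 12.4 to 14.2 and 17.2 to 19.4 FPKM do not overlap, with pool 1 highest and pool 2 lowest. The gene averaged 18.9 ± 5.94 FPKM (SD, n = 3), close to the middle of the table, with 49.04% to 65.04% of protein-coding features below it in a given pool. In pool 2 its level was 0.842 times the median of protein-coding features above 0.1 FPKM, and in pool 1 it was 1.55 times that median.

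Hbg1 (AGLU2) stood at 23.3 FPKM in pool 1, 6.91 in pool 2 and 7.17 in pool 3, from 1313, 338 and 337 fragments. Pool 1 stands alone here: its interval of 22.03 to 24.6 FPKM lies above those of pool 2 (6.19 to 7.69) and pool 3 (6.42 to 7.98), which overlap each other. The mean was 12.5 ± 9.37 FPKM (SD, n = 3), or 7.04 FPKM without pool 1. The gene was above the median of protein-coding features in pool 1, at 1.44 times that median, and below it in pools 2 and 3, at 0.439 and 0.424 times.

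**Figure D1:**
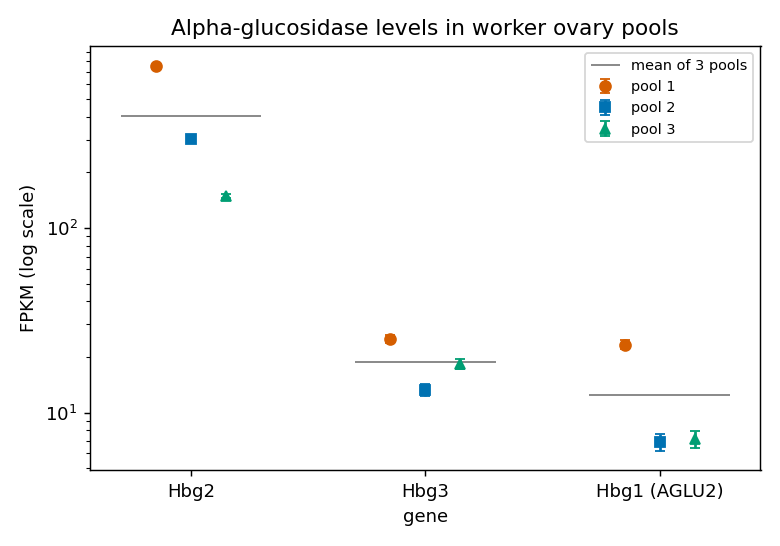
FPKM (log scale) of Hbg2, Hbg3 and Hbg1 (AGLU2) in the RNA-seq libraries of pools 1, 2 and 3, with exact Poisson 95% intervals as bars and the mean of the 3 pools as a grey line. Hbg2 sits between 149 and 754 FPKM, above every value of Hbg3 (13.3 to 25.1) and Hbg1 (6.91 to 23.3), and pool 1 is the highest pool of each gene.

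The order of the 3 genes was Hbg2, Hbg3, Hbg1 in each pool. Within a library Hbg2 was 30.1, 23.01 and 8.15 times Hbg3 in pools 1, 2 and 3, and the difference in log2(FPKM + 1) averaged 4.08 ± 0.99 (SD, n = 3). Hbg2 was 32.4, 44.1 and 20.8 times Hbg1, with a mean log2 difference of 4.81 ± 0.55 (SD, n = 3). These differences were several times their spread between pools.

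Hbg3 and Hbg1 lay closer together. Hbg3 was 1.08, 1.92 and 2.55 times Hbg1 in pools 1, 2 and 3, a log2 difference of 0.73 ± 0.58 (SD, n = 3), and in pool 1 their counting intervals overlap. All 3 pairs of genes kept their sign in 3 of 3 pools. For each pair the exact two-sided sign-flip permutation test over pools gave p = 0.25, the smallest value that 3 pools allow, so none of the 3 comparisons could pass 0.05. Of the FPKM summed over the 3 genes, Hbg2 made up 94.0%, 93.8% and 85.4% in pools 1, 2 and 3, Hbg3 3.12%, 4.08% and 10.5%, and Hbg1 2.90%, 2.13% and 4.10%.

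The 3 genes differed in how far they spread between pools. The highest pool was 5.06 times the lowest for Hbg2 (95% counting interval 4.93 to 5.19), 1.89 times for Hbg3 (1.74 to 2.06) and 3.37 times for Hbg1 (2.99 to 3.81). A spread of 2-fold or more was thus reached by 2 of the 3, Hbg2 and Hbg1, against 11.0% of the 7472 features with a mean of 5 FPKM or more. Both were highest in pool 1. Of the 820 features with a spread of that size, 493 were highest in pool 1, which is 6.60% of the 7472. The median spread of the 7472 features was 1.31-fold, and 98.4% of them spread less than Hbg2, 96.9% less than Hbg1 and 87.2% less than Hbg3. No test of pools is possible with 1 library each.

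Pool 1 stood at 3.32 times the mean of pools 2 and 3 for Hbg2, 1.59 times for Hbg3 and 3.31 times for Hbg1. Without pool 1 the spread was 2.04-fold for Hbg2, 1.38-fold for Hbg3 and 1.04-fold for Hbg1. So Hbg2 alone of the 3 differed 2-fold between pools 2 and 3, with pool 2 the higher, while Hbg3 was higher in pool 3. Without pool 3, the spread of Hbg2 was 2.47-fold, and without pool 2 that of Hbg3 was 1.37-fold. The pool order of Hbg2 (1, then 2, then 3) was shared by 9.60% of the 7472 features, and that of Hbg3 (1, then 3, then 2) by 28.7%. The FPKM of Hbg1 had the order of Hbg3, but its pools 2 and 3 differed 1.04-fold with overlapping counting intervals. Their order is therefore not settled for Hbg1.

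**Figure D2:**
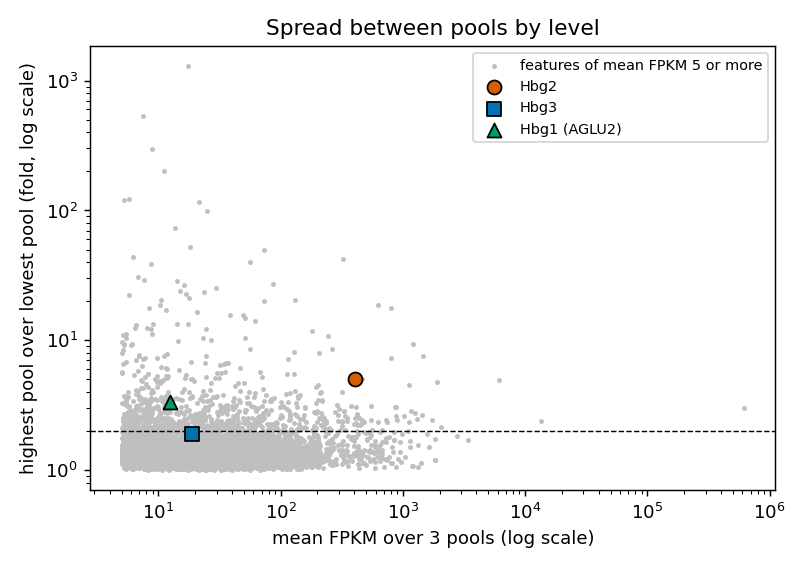
Spread between pools (highest over lowest FPKM, log scale) against the mean FPKM over the 3 pools (log scale) for features with a mean of 5 FPKM or more (grey points; a feature at 0 in a pool is not drawn), with the 3 alpha-glucosidase genes marked. Hbg2 (5.06-fold) and Hbg1 (3.37-fold) lie above the dashed 2-fold line and Hbg3 (1.89-fold) just below it.

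The genes whose levels followed each member most closely over the 3 libraries were sought among the 7074 protein-coding features with a mean of 5 FPKM or more, by the Euclidean distance of log2(FPKM + 1) centred on each gene's mean. Nearest to Hbg2 were LOC726611, a putative uncharacterised protein (337, 177 and 97.9 FPKM in pools 1, 2 and 3, distance 0.40), hymenoptaecin (LOC406142), an antimicrobial peptide of the bee (2990, 965 and 393 FPKM, distance 0.42), and cubilin (LOC411053), an endocytic receptor in mammals (115, 39.7 and 29.1 FPKM, distance 0.42).

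Nearest to Hbg3 were muscle-specific protein 20 (LOC408972; 521, 288 and 386 FPKM, distance 0.015), the histone deacetylase complex subunit SAP18 (LOC100576967, 0.016) and cytochrome c oxidase assembly factor 5 (LOC725170, 0.026). Nearest to Hbg1 were a putative epidermal cell surface receptor (LOC412968; 38.9, 12.1 and 11.7 FPKM, distance 0.067), a protein named after the heart and neural crest factor of vertebrates (LOC100576222, 0.086) and a short-chain dehydrogenase/reductase (LOC412458, 0.091). The members were not each other's nearest genes. Ranked by distance from Hbg2, Hbg1 was 26th and Hbg3 661st, and from Hbg1, Hbg2 was 305th and Hbg3 366th. From Hbg3, Hbg2 was 6899th and Hbg1 5235th. The distance itself is the same in both directions: 0.78 for Hbg1 and Hbg2, 0.82 for Hbg1 and Hbg3, and 1.41 for Hbg2 and Hbg3. A rank also depends on how many other genes lie near the gene it is taken from. With 3 libraries these distances describe the pools and no more.

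Of the alpha-amylase domain family, 4 further features were listed, 2 of them also in the glucose group below. The family was read from the domain column after the table was seen. LOC552381 and LOC409452, both named after the amino acid transport protein rBAT (a family member that is a transporter subunit in mammals and has no known sugar-cutting role there), averaged 48.4 ± 3.83 and 27.1 ± 4.24 FPKM (SD, n = 3). Maltase 1 (LOC552357) averaged 3.86 ± 0.775 FPKM, with 4.36, 2.97 and 4.26 FPKM in pools 1, 2 and 3. Alpha-amylase (LOC406114), which cuts starch, stood at 2.64, 0.0222 and 0.440 FPKM in pools 1, 2 and 3. Hbg2 was thus higher than each of the others of its domain family in every pool, the closest being LOC552381 in pool 3 at 50.8 FPKM. Of the 2 with a mean of 5 FPKM or more, neither spread 2-fold between pools, which says nothing of the family beside the 11.0% of all features.

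Other genes for the handling of glucose, glycogen and trehalose (the blood sugar of insects) were matched by product name, 59 features with a median of 4.32 FPKM. Of the 29 with a mean of 5 FPKM or more, 5 spread 2-fold or more between pools, and none did without pool 1. The share is to be read against the 11.0% of all features. The median spread of the 29 was 1.32-fold, beside 1.31-fold for all features of that level.

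The 5 did not move one way. Highest in pool 1, as Hbg2 and Hbg1 were, stood a pair of genes named after facilitated trehalose transporters, LOC724874 at 57.0, 7.53 and 8.69 FPKM and LOC413575 at 41.03, 8.42 and 9.04 FPKM. The glucose dehydrogenase LOC410733 had the same highest pool, at 12.04, 4.83 and 5.91 FPKM. In the opposite direction, Tret1, the trehalose transporter, stood at 214, 536 and 459 FPKM, and the glucose dehydrogenase LOC408603 at 41.7, 129.98 and 160.4 FPKM. The means of Tret1 (403 ± 168 FPKM) and Hbg2 (403 ± 314 FPKM; SD, n = 3 each) were alike to 3 digits, while Tret1 was lowest in the pool where Hbg2 was highest.

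Among the other high members of that group, neutral alpha-glucosidase AB (LOC551205), which trims glucose from new glycoproteins in the endoplasmic reticulum, stood at 109 ± 34.7 FPKM. It was highest in pool 1, at 149, 86.8 and 92.0 FPKM in pools 1, 2 and 3. A facilitated trehalose transporter (LOC552592) averaged 88.0 ± 19.4 FPKM, and hexokinase (LOC551005), which phosphorylates glucose, 82.5 ± 22.0 FPKM (SD, n = 3 each). Lysosomal alpha-glucosidase (LOC409365), a glycogen-degrading enzyme of a different glycoside hydrolase family, had 15.4, 17.6 and 17.9 FPKM in pools 1, 2 and 3. This gene varied little between pools and was not highest in pool 1. The pair of trehalase genes, which split trehalose into glucose, averaged 27.5 ± 7.85 FPKM (LOC410795) and 22.5 ± 7.34 FPKM (LOC410484), both lowest in pool 1.

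Markers of the organs from which the enzymes are known were read beside these values. Gut markers (23 features of digestive proteases, carboxypeptidases, peritrophins and lipases) summed to 354 FPKM in pool 1, 133 in pool 2 and 160.1 in pool 3, and 21 of the 23 were highest in pool 1. Of the 10 with a mean of 5 FPKM or more, 7 spread 2-fold or more, 6 of them highest in pool 1. With pool 1 left out and the minimum of 5 FPKM applied to pools 2 and 3, 1 feature of the list spread 2-fold or more. Of the 10, chymotrypsin-1 (LOC410894) and a trypsin-7 (LOC413645, 0.0412 and 0.515 FPKM in pools 2 and 3) also differed 2-fold or more there. Both fell below that minimum. Among all 7472 features with a mean of 5 FPKM or more, 38.2% were highest in pool 1 and 11.0% spread 2-fold or more. The 21 of 23 also counts features below that mean, so the 38.2% is not a like share for it. The share that did both was 6.60%, and 245 features spread 2-fold or more without pool 1, with the minimum applied to pools 2 and 3. Aminopeptidase N (LOC412808) averaged 54.7 ± 23.1 FPKM, second to the lipase gene LOC411609 with 76.3 ± 15.5 FPKM (SD, n = 3 each), and the lowest was a carboxypeptidase B (LOC410452) at 0.0559 ± 0.0508 FPKM. Among those with a mean of 1 FPKM or more, the largest spread was that of chymotrypsin-1 (LOC410894), at 51.8, 0.0401 and 0.418 FPKM. Of the list, 5 features were listed at 0 in at least 1 pool, none of them in all 3.

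The summed gut level was thus highest in the pool where Hbg2, Hbg3 and Hbg1 were highest. The part of gut markers in these levels was not tested. Between pools 2 and 3 the summed gut level was higher in pool 3, as was the level of Hbg3, while Hbg2 was higher in pool 2. Most of that gut difference lay in the lipase gene LOC411609 (60.6 and 76.6 FPKM in pools 2 and 3) and an aminopeptidase N (LOC409077, 6.75 and 14.6 FPKM).

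Hypopharyngeal gland markers (17 features: royal jelly proteins, glucose oxidase and alpha-amylase, the last 2 also in the glucose group above) summed to 154 FPKM in pool 1, 103 in pool 2 and 128 in pool 3. Most of that sum was a royal jelly protein 1 feature (LOC727110) at 105 ± 18.1 FPKM, followed by Mrjp8 at 7.09 ± 0.956 FPKM. Among the other jelly protein genes, Mrjp1 stood at 1.62, 0.429 and 0.657 FPKM, and Mrjp2 was listed at 0 in pools 1 and 3 and at 0.0203 FPKM in pool 2. Like Hbg3, the summed level was highest in pool 1 and lowest in pool 2, and the part of these markers in the level of Hbg3 was not tested. Of the 17, 11 were highest in pool 1, and neither of the 2 with a mean of 5 FPKM or more spread 2-fold. Among all features of that level, 38.2% were highest in pool 1 and 11.0% spread 2-fold or more. Most of the 17 were below that level, so the 38.2% is not a like share for the 11 of 17. The largest spread among those above 1 FPKM was that of alpha-amylase.

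Fat body and haemolymph markers (11 features) summed to 1627, 1912 and 1848 FPKM in pools 1, 2 and 3, with 2 of the 11 highest in pool 1. Apolipophorins (LOC408961), the lipid carrier of the haemolymph, led at 645 ± 152 FPKM, then the apolipophorin-III gene A4 at 514 ± 87.1 FPKM, and a vitellogenin-2-like gene (LOC726783) was lowest at 1.39 ± 0.828 FPKM. Of the 8 with a mean of 5 FPKM or more, 1 spread 2-fold or more, the storage protein gene Hex70a at 199.9, 80.0 and 70.1 FPKM, and Hex110, another storage protein gene, had the largest spread with 8.13, 3.10 and 1.13 FPKM. Both had the pool order of Hbg2. The 1 of 8 is near the 11.0% of all features. The 2 of 11 highest in pool 1 stand beside 38.2%, a share that leaves out features with a mean below 5 FPKM, which the 11 include.

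Cuticle and trachea markers (48 features) summed to 2118, 815 and 708 FPKM in pools 1, 2 and 3. That pool 2 exceeded pool 3 rested on Cpap3-d, at 253, 587 and 398 FPKM. The next by mean, Apd-3, Apd-2 and CPR22, were each higher in pool 3 than in pool 2. Of the 15 with a mean of 5 FPKM or more, 10 spread 2-fold or more, 8 of them highest in pool 1. With pool 1 left out and the minimum of 5 FPKM applied to pools 2 and 3, 1 feature of the list spread 2-fold or more. Of the 15, Apd-1 (0.969 and 2.90 FPKM in pools 2 and 3) and CPR28 (2.93 and 6.80 FPKM) also differed 2-fold or more there. Both fell below that minimum. Cpap3-d averaged 413 ± 168 FPKM and was highest in pool 2, Apd-3 stood at 918, 21.8 and 35.7 FPKM, LOC727392, an endocuticle glycoprotein, had the largest spread of those with a mean of 1 FPKM or more, at 12.7, 0.331 and 0.197 FPKM, and LOC724735 was lowest at 0.0173 ± 0.03001 FPKM. Venom gland markers (30 features) summed to 3521, 4159 and 4193 FPKM, with 2 of the 15 of that level at 2-fold or more. The counts of both lists are to be read against the 11.0% of all features, which the venom gland count is near. For the 8 cuticle and trachea features also highest in pool 1, the share of all features was 6.60%. The venom list held LOC503505 at 1821 ± 165 FPKM, the venom protease LOC550671 at 1151 ± 314 FPKM, LOC408395 with the largest spread at a mean of 1 FPKM or more (21.8, 1.96 and 3.03 FPKM) and LOC552199, the lowest, at 0.00599 ± 0.0104 FPKM. The part of these lists in the Hbg levels was likewise not tested.

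**Figure D3:**
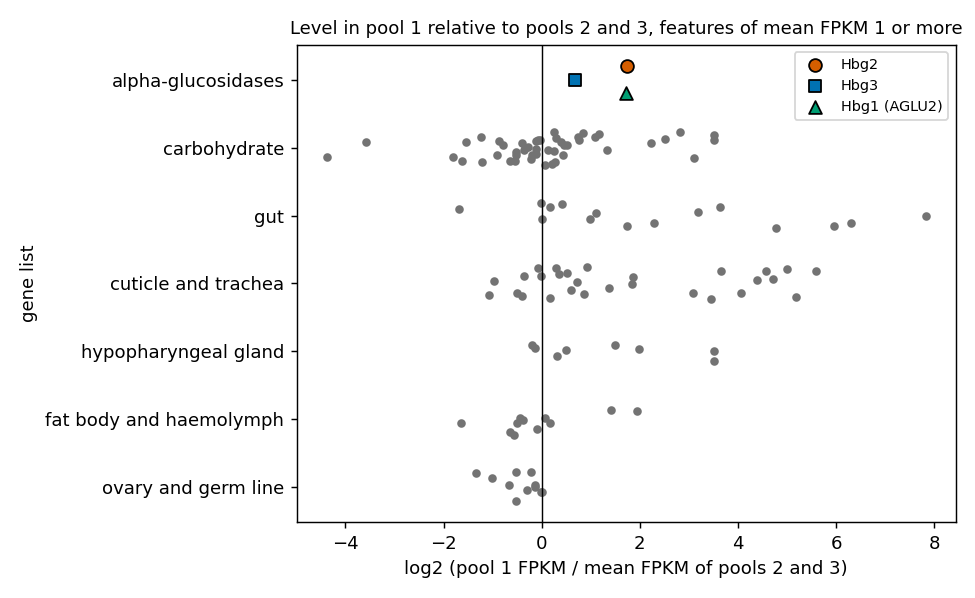
Level in pool 1 relative to the mean of pools 2 and 3 (log2 of the FPKM ratio) for the 3 alpha-glucosidase genes and for the features of each gene list shown with a mean of 1 FPKM or more. Each grey point is a gene, spread vertically for sight only. The venom gland and alpha-amylase domain lists are not drawn. The 3 Hbg genes lie right of 0 (ratios of 3.32, 1.59 and 3.31 for Hbg2, Hbg3 and Hbg1), gut and cuticle genes extend furthest to the right, and the ovary and germ-line genes lie around 0 or left of it.

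In the genome, Hbg2 stands apart from its relatives. It lies on linkage group LG8 at 5373798 to 5375540 on the plus strand, in the coordinates of the deposited table; no source used here names its build. Its exonic length, as recovered from the FPKM values, is 1743 bases, the same as the 1743 bases it spans, so the annotation gives it no intron. Hbg3 and Hbg1 are neighbours on the minus strand of LG6, Hbg3 at 4035315 to 4080975 and Hbg1 at 4022216 to 4030057, with 5257 bases between them. They are also neighbours in RefSeq's Amel_HAv3.1. Hbg3 has 2235 exonic bases in a span of 45661, and Hbg1 has 1767 in a span of 7842, both lengths being the smallest that give whole fragments in all 3 libraries.

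A trait the 3 genes share is that each overlaps a protein-coding gene on the other strand, which 22.9% of the 10271 protein-coding features do. Hbg2 lies wholly inside LOC725803, a gene named after the cell surface protein chaoptin, and Hbg1 wholly inside LOC724389, a cyclic nucleotide phosphodiesterase (Pde1c). Such a position is held by 5.04% of protein-coding features. For Hbg3, 76.3% of the span overlaps LOC724389, 6.67% overlaps LOC410135, an uncharacterised gene, and a threonine tRNA gene (TRNAT-CGU) also lies within it. The library kit marks strand, but no source used here gives the rule used in counting, so reads of such pairs may have been shared or dropped.

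Whether this touched the levels of the 3 genes was not tested.

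The levels of the overlapping genes are given for comparison. LOC725803 stood at 0.376, 0.746 and 0.831 FPKM in pools 1, 2 and 3, and Hbg2 at 754, 305 and 149 FPKM. LOC724389 stood at 62.8, 225 and 131 FPKM. It was lowest in pool 1, where Hbg3 and Hbg1 were highest, and highest in pool 2, where Hbg3 was lowest. Hbg1 has no clear lowest pool, since its counting intervals in pools 2 and 3 (6.91 and 7.17 FPKM) overlap. LOC410135 was close to Hbg3 in level, at 26.7, 21.5 and 19.5 FPKM, but had a different lowest pool. The nearest features that do not overlap were low: LOC725765 and Mir3744 beside Hbg2 averaged 1.98 and 0.0892 FPKM, and the lncRNA genes LOC102654942 beside Hbg1 and LOC107964536 beside Hbg3 averaged 2.61 and 0.106 FPKM.

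Beyond linear RNA, the table of circRNAs (closed loops made when a downstream splice site joins an upstream one) listed 9 back-splice junctions for Hbg3, 1 for Hbg1 and none for Hbg2. For comparison, 21.2% of the 7074 protein-coding features with a mean of 5 FPKM or more were listed as hosts. Of 2119 protein-coding hosts, which had a median of 2 junctions each, 85.5% had fewer than Hbg3. Levels are SRPBM, the deposited signal of reads across a back-splice after scaling to the mapped reads, and the smallest values above 0 were 21.6, 24.1 and 20.9 in pools 1, 2 and 3. The depth behind them is unknown, so no interval is given.

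Of the 11794 junctions listed, 32.4% were above 0 in all 3 pools. Of the 9 Hbg3 junctions, 2 were. The one spanning 2705 bases (LG6 4043719 to 4046423) had 615, 1532 and 898 SRPBM, and the one spanning 6282 bases (4040142 to 4046423) had 539, 1278 and 386 SRPBM. Both were highest in pool 2, the pool with the lowest linear level of Hbg3. The other 7 had means of 83.6 to 240.4 SRPBM and were each at 0 in at least 1 pool. In all, 6 junctions were seen in pool 1, 3 in pool 2 and 8 in pool 3, and 6 of the 9 shared the same upstream end at 4046423.

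Summed over its junctions, Hbg3 had 2428, 2931 and 3071 SRPBM, a mean of 2810 ± 338 SRPBM (SD, n = 3), which was above the sums of 70.98% of protein-coding hosts. The median host sum was 699 SRPBM. The sum was lowest in pool 1, where the FPKM of Hbg3 was highest, but the 2 kinds of library were scaled separately and no ratio was formed. All 9 junctions lie within 11109 bases of the 3′ end of the annotated gene, 24.3% of its span. The single junction of Hbg1, spanning 4741 bases (4022220 to 4026960), was listed in pool 3 only, at 282 SRPBM.

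**Figure D4:**
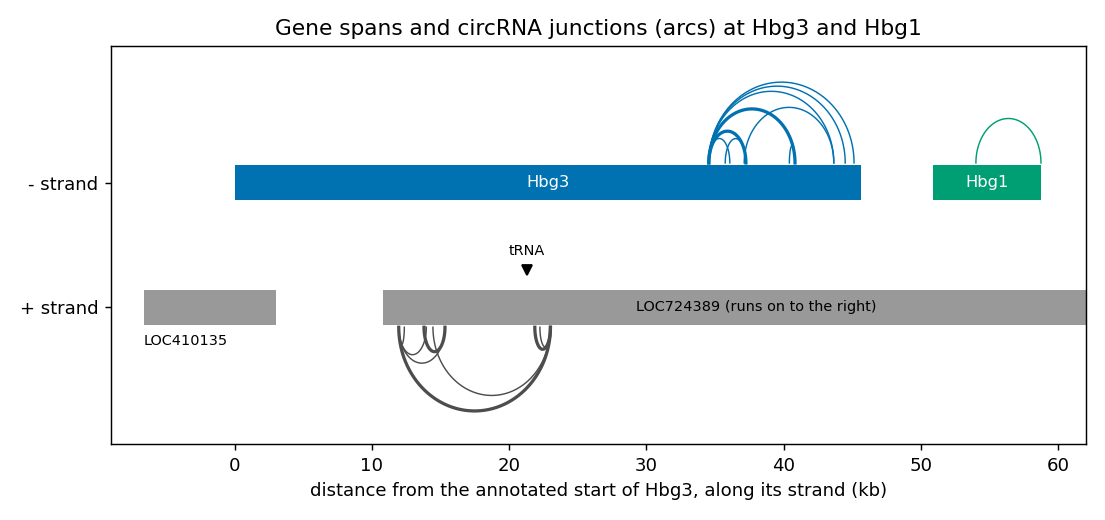
Spans of Hbg3 and Hbg1 (minus strand, above) and of the plus-strand genes that overlap them (below), by distance from the annotated start of Hbg3 along its strand in kb, with circRNA junctions as arcs (thick where listed above 0 in all 3 pools). The 9 arcs of Hbg3 sit in the last 24.3% of its span, while LOC724389 covers Hbg1 and most of Hbg3 on the other strand.

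**Figure D5:**
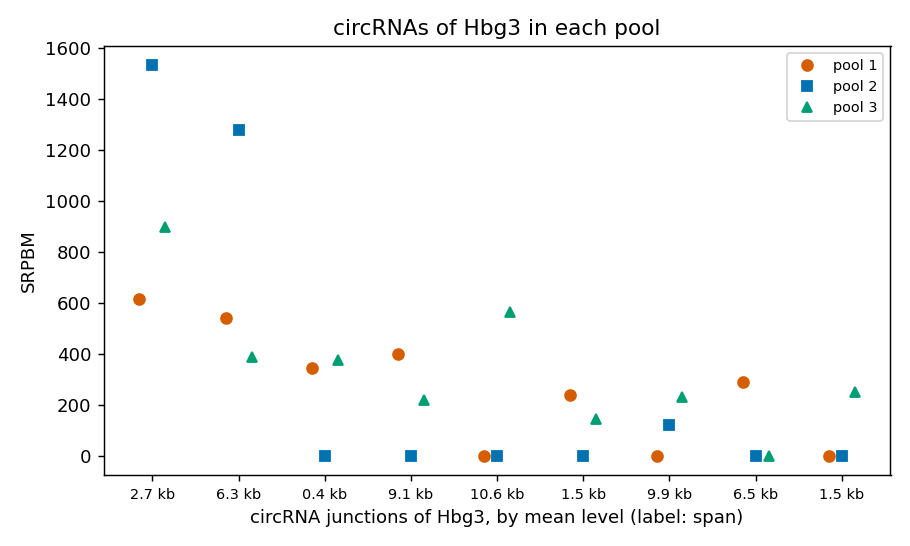
SRPBM (linear scale) of the 9 circRNA junctions of Hbg3 in pools 1, 2 and 3, ordered by mean level and labelled by span in kb. The 2 junctions above 0 in all 3 pools stand on the left and are highest in pool 2, at 1532 and 1278 SRPBM.

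Within the annotated span of Hbg3, on the other strand, lie 8 junctions of LOC724389. The most abundant of them had 68709, 94028 and 88969 SRPBM in pools 1, 2 and 3 and was 14th by mean of the 11794 junctions listed. It was lowest in pool 1, as was the linear level of LOC724389.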

How the data were processed

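The authors deposited FPKM per gene for 3 RNA-seq libraries (rRNA-depleted, strand-specific kit, per the labels' protocols) and a normalised signal, SRPBM, per circRNA junction for 3 RNase R libraries. The submitters' processing notes list HTSeq 0.6.1, TopHat2 2.0.9, Bowtie2 2.0.6 and Bowtie, with no role given; the build, the strand rule and the circRNA caller are not given in the sources used here. Library totals were taken from the step of 1-exon genes, and fragments from the smallest exonic length giving whole fragments in all libraries (within 1e-06 and scaled with the count), found for 13203 of 13204 features. The recovery of fragments was tested on simulated data with the library totals given (fragment ratios between libraries right for 300 of 300 genes, length right for 276). The step that gave those totals was not tested. A feature at 0 in a pool counted as past any fold.

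Pairs of genes were compared within libraries with exact sign-flip permutation tests. The gene lists were matched on product name or symbol after 4 name collisions were removed; the members and lists were chosen with earlier results of these data known. Named genes were the members, the 5 highest and the 2-fold genes of the glucose group, the 2 highest, the lowest and the most spread of each marker list, the 3 nearest profiles, and neighbours; vas, the maltase, lysosomal alpha-glucosidase, trehalases, Mrjp1, Hex70a and the domain family were added after values were seen. Alternatives were another pseudocount, unit, minimum, fold, scaling and libraries left out. Python 3.11.15, pandas 2.3.3 and SciPy 1.17.1 were used.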

Additional observations from a re-analysis of the deposited data

How the results depend on the processing

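The pair differences kept their sign under every alternative run. Leaving out a pool gave 4.58 to 5.12 for Hbg2 minus Hbg1, 0.48 to 1.04 for Hbg3 minus Hbg1 and 3.69 to 4.64 for Hbg2 minus Hbg3 (log2). Both genes of a pair are read in the same library, which is the block. With no replicate block, the mean differences were the same (4.81, 0.73 and 4.08) and exact permutation p was 0.1, 0.3 and 0.1, 0.1 being the smallest possible. The spread between pools was 1.04 to 3.37-fold for Hbg1, 2.04 to 5.06-fold for Hbg2 and 1.37 to 1.89-fold for Hbg3 with a pool left out, while other scalings and a pseudocount kept it within the counting interval. Features spread 2-fold or more numbered 820, against 1716 from a mean of 1 FPKM, 3081 with no minimum, 294 at 3-fold and 245 to 700 with a pool left out. Of the glucose group, 19 passed from a mean of 1 FPKM and 0 to 5 with a pool left out. Each pool is 1 library, and the exact permutation tests cannot pass 0.05 with 3 pools. The counts without a pool for the marker lists were added after the data were seen. In every count without a pool, the minimum mean was applied to the pools that were kept.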
